A study of Homo sapiens with 6 samples.

Results

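The transcription factors of the AP-1 group and their early response relatives were followed after knockdown of DLEU1, a long noncoding RNA, in oral squamous cell carcinoma (OSCC) cells. The genes were FOS, FOSB, FOSL1, FOSL2, JUN, JUNB, JUND, ATF3, EGR1 and BATF3. They were taken as every array probe whose gene name in the files is one of these 10 symbols, which gave 13 of the 50599 probes outside the controls, 4 of them for ATF3. All 13 were among the 19956 probes that were well above background, by the scanner software's own criterion, on 1 or both arrays in each of the lines. HSC-3, KON and Ca9-22 are established OSCC lines, and each was transiently transfected with a control siRNA (siCtrl) or with the small interfering RNA siDLEU1-2, which targets DLEU1. Total RNA was collected 72 h later, and 100 ng was labeled with the dye Cy3 for 1-color arrays. Each line gave 1 array per siRNA, so replication is over the 3 lines, and no error can be given for a change in 1 of them. A second siRNA against DLEU1 was not analysed here.

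AP-1 is a dimer of basic leucine zipper proteins. FOS family proteins have to pair with a JUN family protein to bind DNA, whereas JUN family proteins can also pair among themselves, and ATF3 and BATF3 are relatives that join the same dimers and often hold transcription down. EGR1 is a zinc finger factor and no part of AP-1, but like FOS it belongs to the immediate early genes, which growth factors, serum and stress switch on within minutes through MAP kinases, the ternary complex factors of the ELK group and the serum response factor SRF. In squamous epithelium AP-1 controls genes of keratinocyte differentiation, and in carcinoma cells it drives secreted proteases and other genes of invasion.

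The stretches upstream of the EGR1 and JUND genes are shown because EGR1 was the member that passed the test and both carry a motif of the pathway. They come from RefSeq (GRCh38.p14), at chr5:138465329-138465478 on the plus strand and chr19:18281623-18281842 on the minus strand, and both end at the base before the gene's start. In the EGR1 stretch the capitals mark matches to the CArG box, the element that SRF binds, and in the JUND stretch they mark the CRE letters TGACGTCA, which dimers of ATF and JUN proteins can bind.
EGR1: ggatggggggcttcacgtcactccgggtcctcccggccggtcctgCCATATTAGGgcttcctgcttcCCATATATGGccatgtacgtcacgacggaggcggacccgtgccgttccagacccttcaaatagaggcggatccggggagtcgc
JUND: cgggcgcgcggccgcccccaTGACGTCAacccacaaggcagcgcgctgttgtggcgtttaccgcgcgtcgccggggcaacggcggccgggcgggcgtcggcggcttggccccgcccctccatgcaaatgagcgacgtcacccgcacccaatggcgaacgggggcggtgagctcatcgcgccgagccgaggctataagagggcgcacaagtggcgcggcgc
The EGR1 matches lie 105 to 96 and 83 to 74 bases before the start, and the JUND match 200 to 193 bases before it. Windows of 300 bases, from 250 before the start to 50 after it, were searched on both strands in 35116 RefSeq promoters, 9 of them of 8 members. The CArG box was found in 1.29% of all promoters and, among the 8 members searched, in EGR1 alone. FOSL1 and BATF3 had no promoter to search, and sites outside the windows would be missed. The CRE was in 1.85% of promoters, and JUND was the only member with it. The shorter element TGACG, which is part of the CRE, was in 24.6% of promoters and in 7 members (EGR1, FOS, FOSB, FOSL2, JUN, JUNB and JUND). The AP-1 site TGACTCA (TRE) was in 4.95% of promoters and, among the members, in FOSL2, inside the transcript. The EGR site GCGNGGGCG was in 9.43% of promoters and in EGR1 itself, 198 to 190 bases before the start. A match is a run of letters and not a measured binding site.

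DLEU1 itself fell 17.1-fold in HSC-3 cells, 12.4-fold in KON cells and 10.8-fold in Ca9-22 after siDLEU1-2. All 6 arrays were on 1 slide, and an array had 43% to 45.7% of its probes well above background. Levels are given below as the log2 of the processed signal relative to the 75th percentile of the same array, and changes as log2 fold changes of siDLEU1-2 over siCtrl within a line, with means ± SD over 3 lines. The cells were measured in bulk, so fewer cells that express a gene and less RNA per cell cannot be told apart.

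EGR1 fell in all 3 lines. Its probe, on chromosome 5 of hg19 from 137804891 to 137804950 (NM_001964), was detected well above background on each of the 6 arrays. The level was 3.70 with siCtrl and 1.13 with siDLEU1-2 in HSC-3 cells, 1.69 and 0.37 in KON cells, and 1.77 and 0.06 in Ca9-22 cells. The 3 siCtrl values were all above the 3 siDLEU1-2 values, and the HSC-3 control array was the highest of the 6. How many of all probes separate the groups in this way is not given here. These are decreases of 5.95-fold, 2.49-fold and 3.27-fold. The mean log2 fold change was -1.87 ± 0.64 (SD, n = 3 lines), and limma called it (adjusted p = 0.0329, Benjamini-Hochberg over all 19956 probes). EGR1 was the only 1 of the 13 probes that limma called, against 8.50% of all probes called in either direction and 4.52% called lower. It was also the only member over 2-fold in all 3 lines, which 4.38% of all probes were. The mean lay between -2.14 and -1.51 under every alternative tried, but the call was lost without any single line, with adjusted p = 0.0828 without HSC-3, 0.103 without KON and 0.0811 without Ca9-22. It was also lost when dim probes were not filtered out (adjusted p = 0.153) and when the cell line was not used as a block (adjusted p = 0.585 by limma and 0.765 by the methods' t-test).

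Over the 6 arrays, the probes whose level followed EGR1 most closely, among 18094 detected that way on each of them, were those of PDPN and ANKRD33 (Pearson r = 0.994 for both) and DCAF6 (r = 0.992). Their mean log2 fold changes were -1.05 for PDPN, which encodes the membrane glycoprotein podoplanin, -1.14 for DCAF6 and -0.35 for ANKRD33. These genes were chosen for their likeness to EGR1 on the same arrays, and the arrays share lines and siRNAs, so the changes are given without a test and the correlations are a description of 6 values.

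ATF3, a stress-induced factor of the ATF group, was measured by 4 probes on chromosome 1 of hg19, and 3 of them moved by nearly the same amount. They lie from 212788502 to 212788561 (probe 1), from 212792837 to 212792896 (probe 3) and from 212793856 to 212793915 (probe 4), and probe 2 lies from 212792519 to 212792578. The files assign probe 1 to NM_001674 and the others to NM_001040619. The sequences of probes 1 and 3 are shown because their agreement rests on separate stretches of the gene.
ATF3 probe 1: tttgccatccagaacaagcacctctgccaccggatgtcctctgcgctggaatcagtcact
ATF3 probe 3: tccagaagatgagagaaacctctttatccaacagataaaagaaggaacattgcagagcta
On probe 1 the level was -1.47 with siCtrl and 0.32 with siDLEU1-2 in HSC-3 cells, -0.44 and 0.97 in KON cells, and -0.42 and 0.14 in Ca9-22 cells. Every siDLEU1-2 value was above every siCtrl value. On probe 4 the level was 2.51 and 4.22 in HSC-3 cells, 3.94 and 5.40 in KON cells, and 3.76 and 4.24 in Ca9-22 cells, and on probe 3 it was -2.30 and -0.42, -0.53 and 0.77, and -1.10 and -0.51 in the same order. The groups did not overlap on probes 3 and 4 either, although on probe 3 the lowest siDLEU1-2 value only just exceeded the highest siCtrl value. The share of all probes without such overlap is not given, so this is a description only. On probe 3 the siDLEU1-2 array was 3.68-fold higher in HSC-3 cells, 2.47-fold higher in KON cells and 1.50-fold higher in Ca9-22 cells. The 3 probes differed from each other by at most 0.17 on the log2 scale in any line. Their mean log2 fold changes were 1.25 ± 0.63, 1.26 ± 0.65 and 1.21 ± 0.65, and none passed the threshold (limma, adjusted p = 0.0606, 0.0623 and 0.0668). All 3 passed it with normexp background correction and when only probes well above background on all 6 arrays were tested, with adjusted p from 0.0425 to 0.048, although normexp lowered the mean of probes 1 and 3 to 0.89 and 0.85. Without HSC-3 or without KON their adjusted p was 0.159 to 0.211, and without the block 0.587 to 0.803.

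Probe 2 of ATF3 behaved differently. Its levels were -1.59 and -1.89 in HSC-3 cells, -1.74 and -1.61 in KON cells, and -1.78 and -1.47 in Ca9-22 cells, a narrow band in which the groups overlapped. The mean log2 fold change was 0.044 ± 0.32 (limma, adjusted p = 0.9). Its sign turns when arrays are centered on the median (-0.029). Against probe 1 its change differed by 2.10 in HSC-3 cells, 1.28 in KON cells and 0.24 in Ca9-22 cells. Which ATF3 transcripts the probes separate was not tested.

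**Figure D1:**
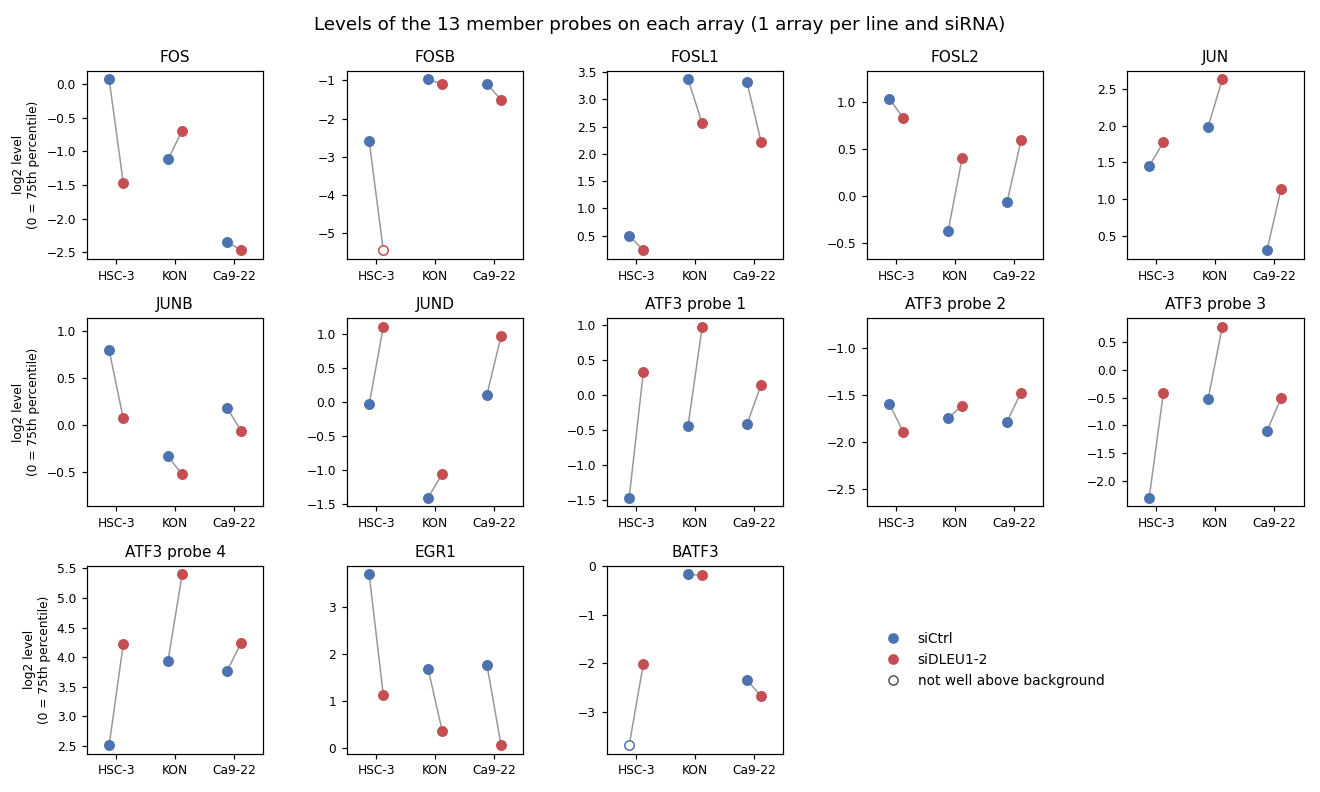
Level of each of the 13 probes on each array, as log2 of the processed signal relative to the array's 75th percentile (vertical axis, scaled separately in each panel), in HSC-3, KON and Ca9-22 (horizontal axis). Blue points are siCtrl, red points siDLEU1-2, grey lines join the arrays of a line, and open points were not well above background. EGR1 is lower and ATF3 probes 1, 3 and 4 are higher with siDLEU1-2 in every line.

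Among the FOS family, the probes of FOSB and FOSL1 were lower with siDLEU1-2 in every line, and none passed the threshold. Those of FOS and FOSL2 changed direction between lines. FOS, the founding member (chromosome 14, from 75748214 to 75748273), had levels of 0.072 and -1.47 in HSC-3 cells, -1.12 and -0.69 in KON cells, and -2.34 and -2.47 in Ca9-22 cells. It was lower with siDLEU1-2 in HSC-3 cells, by 2.92-fold, and 1.35-fold higher in KON cells. The mean log2 fold change was -0.42 ± 1.02 (limma, adjusted p = 0.542), and it was 0.15 without HSC-3. The siCtrl and siDLEU1-2 values overlapped.

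FOSB, a close relative of FOS (chromosome 19, from 45978205 to 45978264), had a level of -2.58 with siCtrl in HSC-3 cells and was not well above background there with siDLEU1-2, where it read -5.44. From the detection limit of that array, FOSB was at least 2.01-fold lower with siDLEU1-2 in HSC-3 cells. In KON the levels were -0.97 and -1.09, and in Ca9-22 -1.09 and -1.51. The siDLEU1-2 array was the lower of the pair in every line, but the groups overlapped and the mean of -1.13 ± 1.50 was carried by HSC-3 (limma, adjusted p = 0.275). The mean log2 fold change was -0.27 without HSC-3, -0.51 with the dim value raised to the detection limit and -0.26 with normexp background correction.

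FOSL1 encodes FRA-1, the FOS relative best known from invasive carcinoma cells, and it lacks the strong activation domain of FOS. Its probe lies on chromosome 11 from 65660098 to 65660157. Its level was 0.50 with siCtrl and 0.23 with siDLEU1-2 in HSC-3 cells, 3.37 and 2.56 in KON cells, and 3.32 and 2.22 in Ca9-22 cells. Each line's siDLEU1-2 array was the lower of its pair, by 1.21-fold, 1.75-fold and 2.14-fold, while the groups overlapped, with HSC-3 low under both siRNAs. The mean log2 fold change was -0.73 ± 0.42 (limma, adjusted p = 0.0988). FOSL2, which encodes FRA-2 (chromosome 2, from 28637175 to 28637234), had levels of 1.04 and 0.83 in HSC-3 cells, -0.37 and 0.41 in KON cells, and -0.066 and 0.60 in Ca9-22 cells. It was higher with siDLEU1-2 in KON and Ca9-22 and slightly lower in HSC-3 cells, with a mean of 0.41 ± 0.55 (limma, adjusted p = 0.332). The FOSL2 mean was 0.73 without HSC-3 and 0.22 without KON.

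Among the JUN family, the probes of JUN and JUND were higher with siDLEU1-2 in every line and that of JUNB lower, and none passed the threshold. JUN, the partner with which FOS proteins form the classical AP-1 dimer (chromosome 1, from 59246511 to 59246570), had levels of 1.45 and 1.77 in HSC-3 cells, 1.98 and 2.63 in KON cells, and 0.30 and 1.14 in Ca9-22 cells. The groups overlapped, and Ca9-22 was the lowest line under each siRNA. The mean log2 fold change of JUN was 0.61 ± 0.26, or 1.52-fold (limma, adjusted p = 0.0901). JUND, which is often expressed in resting cells and can restrain growth (chromosome 19, from 18391371 to 18391430), had levels of -0.035 and 1.11 in HSC-3 cells, -1.41 and -1.06 in KON cells, and 0.11 and 0.97 in Ca9-22 cells. The groups overlapped, with KON low under both siRNAs, and the mean was 0.78 ± 0.40, or 1.72-fold (limma, adjusted p = 0.0814). JUNB, a weaker activator that can oppose JUN (chromosome 19, from 12902998 to 12903057), had levels of 0.80 and 0.074 in HSC-3 cells, -0.33 and -0.52 in KON cells, and 0.19 and -0.059 in Ca9-22 cells, with a mean of -0.39 ± 0.29 (limma, adjusted p = 0.213). Without HSC-3 the JUNB mean was -0.22.

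BATF3, a small zipper protein that pairs with JUN proteins and is needed for a class of dendritic cells (chromosome 1, from 212860028 to 212860087), was dim in HSC-3 cells. It was not well above background with siCtrl there (-3.68) and reached -2.01 with siDLEU1-2, at least 2.98-fold higher. In KON its levels were -0.17 and -0.19, and in Ca9-22 -2.34 and -2.67. The HSC-3 change stood alone, and the mean of 0.44 ± 1.08 became -0.18 without that line (limma, adjusted p = 0.543 and 0.654).

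**Figure D2:**
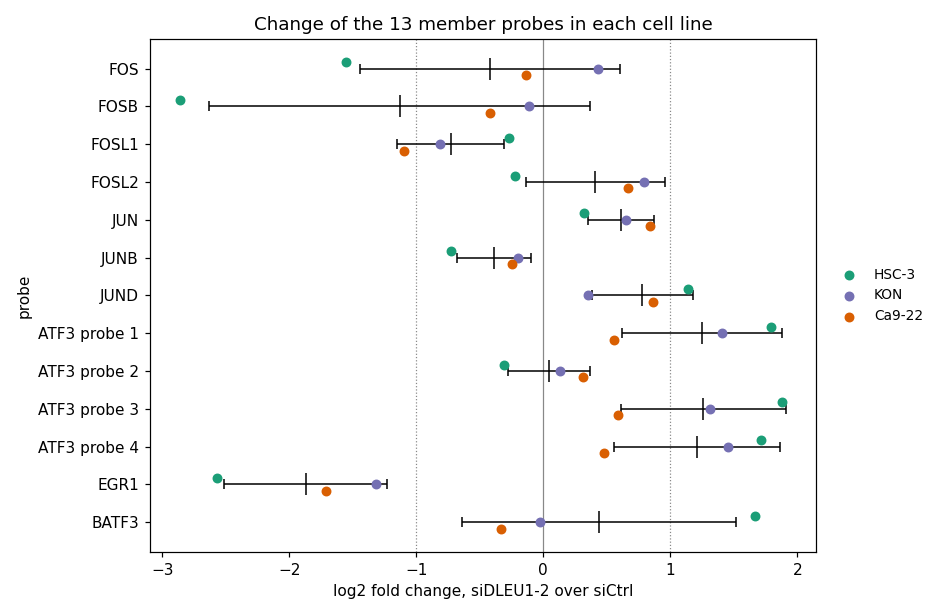
Log2 fold change of siDLEU1-2 over siCtrl (horizontal axis) for each of the 13 probes (vertical axis) in HSC-3 (green), KON (purple) and Ca9-22 (orange). The black tick is the mean over 3 lines, the bar its SD, and dotted lines mark 2-fold. EGR1 lies beyond 2-fold to the left in all 3 lines, with a mean of -1.87.

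Counted over the members, 5 of the 13 probes were higher with siDLEU1-2 in all 3 lines (JUN, JUND and 3 probes of ATF3), where 26.9% of all probes were. Another 4 were lower in all 3 lines (FOSB, FOSL1, JUNB and EGR1), where 26.7% of all probes were. The remaining 4 (FOS, FOSL2, BATF3 and probe 2 of ATF3) went in opposite directions between lines. The median of the 13 mean log2 fold changes was 0.41, beside 0.0073 over all probes, but it was 0.18 with normexp background correction and 0.22 without HSC-3 or without KON. That median counts ATF3 4 times, and with only the brightest probe of each of the 10 genes, a choice made after seeing the data, it was 0.01. Within the lines the median was -0.22 in HSC-3 cells, 0.35 in KON cells and 0.31 in Ca9-22 cells. Without adjustment, 7 probes had a limma p under 0.05, those of EGR1, FOSL1, JUN, JUND and the same 3 probes of ATF3, and so had 29.5% of all probes.

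More member probes passed a 2-fold difference in HSC-3 than in the other lines, although FOSL1, FOSL2 and JUN changed least there. In HSC-3 cells 8 of 13 probes, from 6 of the 10 genes, differed by over 2-fold between the siRNAs, against 14.2% of all probes. FOS, FOSB and EGR1 were lower there, and JUND, BATF3 and 3 probes of ATF3 higher. In KON it was 4 of 13 probes, of EGR1 and ATF3, against 14.6% of all probes, and in Ca9-22 it was 2 of 13, FOSL1 and EGR1, against 13.0%. The median size of the log2 fold change over the members was 1.55 in HSC-3 cells, 0.65 in KON cells and 0.56 in Ca9-22 cells, beside 0.34, 0.37 and 0.34 over all probes. By the brightest probe, 7 of the 10 genes changed most in HSC-3, and FOSL2 in KON and FOSL1 and JUN in Ca9-22. No share over all genes is given for this count. The ATF3 probes share 1 gene, and the FOSB and BATF3 values in HSC-3 each rest on an array where the probe was not well above background. With 1 array per line and siRNA, the difference between lines was not tested.

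Levels of the members were also compared between the lines. Over both arrays of a line, limma called 8 of the 13 probes between HSC-3 and KON, 4 between HSC-3 and Ca9-22, and 3 between KON and Ca9-22, where 36.2%, 36.6% and 33.2% of all probes were called. The members' counts between HSC-3 and Ca9-22 and between KON and Ca9-22 were no higher than these shares of all probes would give. With no filter on dim probes 5 of the 15 calls remained, those of FOSL1 in both its contrasts, JUND in both of its own and JUN between KON and Ca9-22, while each call of FOSB, JUNB, ATF3, EGR1 and BATF3 was lost. In these contrasts the error is what is left after line and siRNA.

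FOSL1 set HSC-3 apart. Its mean level was 0.36 in HSC-3 cells, 2.97 in KON cells and 2.77 in Ca9-22 cells, so that HSC-3 was 6.08-fold below KON and 5.30-fold below Ca9-22 (limma, adjusted p = 0.00704 and 0.0068). KON and Ca9-22 did not differ beyond the error (0.20 on the log2 scale, adjusted p = 0.574). FOSB had the same order, with HSC-3 lower than KON by 2.98 and than Ca9-22 by 2.71 on the log2 scale (adjusted p = 0.0337 and 0.043), although 1 of the 2 HSC-3 arrays was not well above background. With that value raised to the detection limit the differences were -2.05 and -1.78 (adjusted p = 0.00724 and 0.00942).

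EGR1 and JUNB ran the other way. EGR1 was highest in HSC-3 cells, by 1.39 over KON and 1.50 over Ca9-22 on the log2 scale (limma, adjusted p = 0.0352 and 0.0298), and KON and Ca9-22 differed by 0.12 (adjusted p = 0.814). JUNB was 0.86 higher in HSC-3 than in KON cells (adjusted p = 0.0346), while Ca9-22 lay between them and was called against neither. JUN fell in the order KON, HSC-3 and Ca9-22, with mean levels of 2.31, 1.61 and 0.72. Ca9-22 was called lower than both, by 3.01-fold against KON and 1.86-fold against HSC-3 (adjusted p = 0.0103 and 0.0298), and KON and HSC-3 did not differ beyond the error (adjusted p = 0.0533).

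JUND was low in KON cells, with a mean level of -1.23 beside 0.54 in both other lines (adjusted p = 0.0107 and 0.0119). BATF3 was high in KON cells, at -0.18, against -2.84 in HSC-3 cells and -2.50 in Ca9-22 cells (adjusted p = 0.0217 and 0.0316). The HSC-3 mean includes the siCtrl array, where BATF3 was not well above background. With that value raised to the detection limit, HSC-3 lay below KON with a difference of -2.61 (limma, adjusted p = 0.0165). ATF3 was lower in HSC-3 than in KON by 1.48 on probe 3 and 1.30 on probe 4 (adjusted p = 0.0307 and 0.0415), and the difference of 0.84 on probe 1 was not called (adjusted p = 0.11), nor was that of -0.062 on probe 2 (adjusted p = 0.836). FOS and FOSL2 were called in no contrast between lines, although FOS in HSC-3 lay 1.71 above Ca9-22 (adjusted p = 0.0541).

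**Figure D3:**
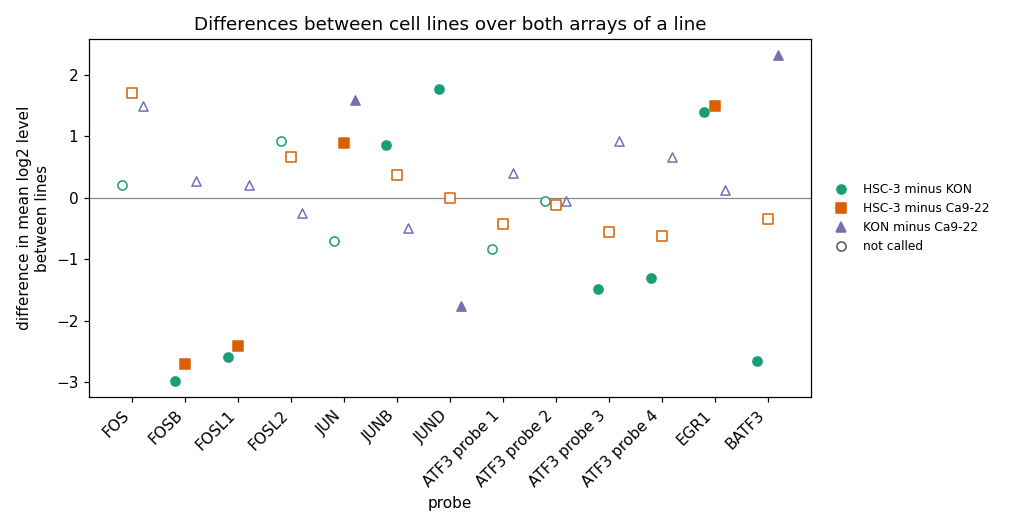
Difference between cell lines in the mean log2 level over both arrays of a line (vertical axis) for each probe (horizontal axis). Green circles are HSC-3 minus KON, orange squares HSC-3 minus Ca9-22 and purple triangles KON minus Ca9-22, and filled symbols were called by limma. FOSL1 and FOSB lie below zero in both HSC-3 contrasts and EGR1 above it.

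Other genes of the pathway were taken from 4 lists, with the brightest kept probe for each gene. Of 69 genes that were kept, limma called 5 higher and 5 lower with siDLEU1-2, where 3.98% of all probes were called higher and 4.52% lower. Among the 5 lower, IVL lost its call when dim values were raised to the detection limit (adjusted p = 0.352). None of these 69 genes was called without HSC-3, without KON, with no filter on dim probes or without the cell line as a block, and 5 were called without Ca9-22. The median mean log2 fold change was 0.11 for AP-1 dimer partners, 0.43 for other immediate early genes, -0.079 for upstream regulators and 0.37 for AP-1 target genes, beside 0.0073 over all probes.

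Among 12 kept genes for other zipper partners, JDP2, which pairs with JUN proteins and represses AP-1 sites, was the 1 that was called. Its level rose from 3.51 to 5.43 in HSC-3 cells, from 1.62 to 3.28 in KON cells and from 2.44 to 4.46 in Ca9-22 cells (limma, mean 1.86 ± 0.19, adjusted p = 0.0227). The increase was of like size in each line. The small MAF proteins have a zipper but no activation domain. MAFK had a mean of 0.85 ± 0.30 (adjusted p = 0.0545) and MAFG -0.095 ± 0.28 (adjusted p = 0.75).

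Of 19 kept genes among the other immediate early genes, limma called 2 higher and none lower, while 10 were higher and 3 lower in all 3 lines whether called or not (26.9% and 26.7% of all probes). DUSP1, a phosphatase that switches MAP kinases off, rose from -1.19 to 0.60 in HSC-3 cells, from -0.48 to 1.65 in KON cells and from -0.77 to 1.07 in Ca9-22 cells (limma, mean 1.92 ± 0.18, adjusted p = 0.0227). All 3 siDLEU1-2 values were above all 3 siCtrl values, with no share of all probes given for this. SGK1, a kinase induced by serum and glucocorticoids, rose by 0.96 ± 0.23 (adjusted p = 0.0385). IER2 had a mean of 0.70 ± 0.18 (adjusted p = 0.0571). CYR61, a matrix-associated protein, had 1.39 ± 1.26 with 2.67 in HSC-3 cells and 0.15 in KON cells (adjusted p = 0.148).

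Upstream of the members, limma called 3 of 17 kept genes lower and none higher, while 6 were lower and 1 higher in all 3 lines whether called or not (26.7% and 26.9% of all probes). ELK3 and ELK4, ternary complex factors that bind together with SRF at CArG boxes, fell by 0.95 and 1.06 on the log2 scale (limma, adjusted p = 0.0359 and 0.0338). RPS6KA3, which encodes the ERK-activated kinase RSK2, fell by 0.91 (adjusted p = 0.0368). A second ELK4 probe had a mean of -0.78 and was not called (adjusted p = 0.0854), and a second RPS6KA3 probe was called with -1.20 (adjusted p = 0.0321). MKL2, a coactivator of SRF, had -0.38 ± 0.28 on its brightest probe (adjusted p = 0.214) and 0.93 ± 0.73 on a dimmer one (adjusted p = 0.129), and NAB2, a corepressor that binds EGR1, had -0.44 ± 0.39 (adjusted p = 0.229). For MAPK9, named here because its probes disagree, the brightest had a mean of 0.70 (adjusted p = 0.0536) and a dimmer one -1.39 (adjusted p = 0.0247).

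Among 21 kept genes known as AP-1 targets, limma called 2 higher and 2 lower, while 12 were higher and 4 lower in all 3 lines whether called or not (26.9% and 26.7% of all probes). The collagenase MMP1 rose by 2.77 in HSC-3 cells, 3.43 in KON cells and 1.15 in Ca9-22 on the log2 scale, and the collagenase MMP13 by 2.89, 3.13 and 1.19 (limma, adjusted p = 0.0484 and 0.0433). CD44, the hyaluronan receptor, fell by 3.15 ± 0.39 (adjusted p = 0.0227), while a second and dimmer CD44 probe had 1.04 ± 0.63 (adjusted p = 0.0845). IVL, a precursor of the cornified envelope, was called lower (adjusted p = 0.0362), but it was well above background on no siDLEU1-2 array. Raising those values to the detection limit gave log2 fold changes of -0.65 in HSC-3 cells, 0.049 in KON cells and -0.28 in Ca9-22 cells, and the call was lost (adjusted p = 0.352). The membrane linker EZR had 0.97 ± 0.46 (adjusted p = 0.0646) and the chromatin protein HMGA1 -0.19 ± 0.17 (adjusted p = 0.436).

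**Figure D4:**
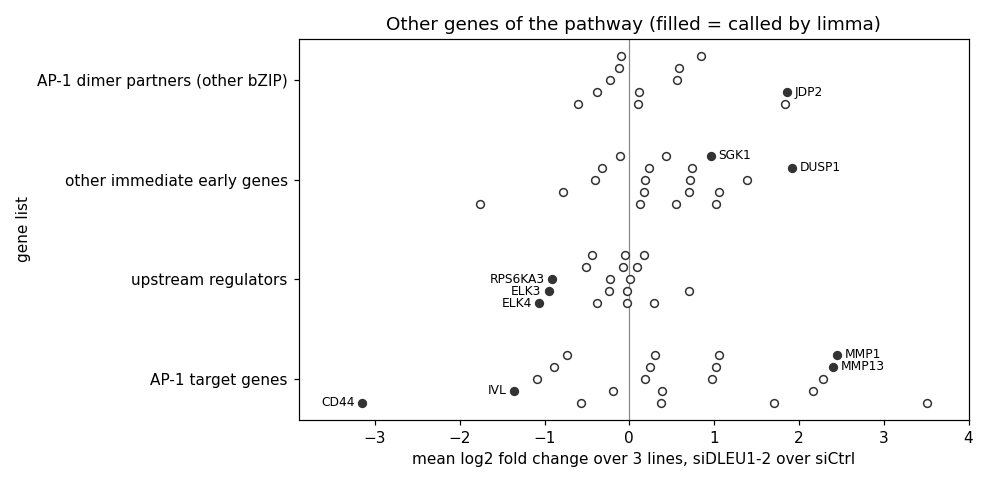
Mean log2 fold change over 3 lines, siDLEU1-2 over siCtrl (horizontal axis), of the 69 kept genes of 4 pathway lists (rows; points are spread vertically for legibility). Filled points were called by limma and carry their gene names. The calls are 5 on each side of zero, IVL on the left being lost when dim values were raised to the detection limit (adjusted p = 0.352), and those among the upstream regulators are all to the left.

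The squamous identity of the lines was checked on 7 markers, 6 of which were detected well above background on each of the 6 arrays, and TP63 on all but the Ca9-22 array with siDLEU1-2. With siDLEU1-2, limma called 4 of the 7 lower (TP63, DSG3, KRT6A and SFN), beside 4.52% of all probes. No probe of any gene was called without HSC-3 or without KON. KRT5 and KRT14 were lower in each line without being called (adjusted p = 0.114 and 0.0824), and KRT17 was lower in HSC-3 and KON and higher in Ca9-22 (mean 0.14, adjusted p = 0.862). The linear level summed over the 7, in units of the 75th percentile, was 381 to 998 with siCtrl and 227 to 533 with siDLEU1-2. SFN was the brightest of the 7 on each array, so this sum mostly follows SFN. Of 4 fibroblast markers, COL1A1 was measured on all arrays and was called higher, while DCN was well above background only on the HSC-3 array with siDLEU1-2 and COL1A2 and LUM on no array, and the sum was 0.697 to 0.858 with siCtrl and 1.67 to 2.89 with siDLEU1-2. Of 3 leukocyte markers CD68 was measured on all arrays and was called lower, while PTPRC was well above background only on the HSC-3 and KON arrays with siDLEU1-2 and CD3E only on the HSC-3 array with siCtrl, with sums of 0.441 to 4.86 and 0.239 to 1.70. No endothelial marker of 3 was measured on all arrays, with sums of 0.184 to 0.797 and 0.357 to 1.61. VWF was well above background on all but the KON array with siCtrl, and CDH5 on all but the Ca9-22 array with siCtrl. Neither was called (limma, adjusted p = 0.252 and 0.113), although CDH5 was higher in each line. PECAM1 was well above background only on the HSC-3 array with siCtrl. The part of these shifts in the changes of EGR1 and the other members was not tested.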

How the data were processed

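Gene expression was measured on 6 Agilent SurePrint G3 Human arrays, 1 per cell line and siRNA. The authors deposited scanner output of Agilent Feature Extraction 10.7 (per the labels), in which the processed signal is a background-subtracted and detrended intensity on a linear scale, not normalized between arrays. The intensities of their series table are these values after rounding, and differ by at most 0.497%. GeneSpring GX is named for the study's own analysis, and its normalization is not given in the sources used here. Probe coordinates are hg19, and exon or UTR annotation of that build was not used here.

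Control spots and outlier spots were left out, spots of a probe were averaged, and the 75th percentile of an array was subtracted from its log2 signals. A probe was taken as well above background when the software marked 50% or more of its spots so. No spot was saturated. limma 3.58.1 in R 4.3.3 (lmFit, eBayes) was fitted with siRNA and cell line, with Benjamini-Hochberg adjustment over 19956 probes and a threshold of 0.05. The cell line is the block, because siCtrl and siDLEU1-2 arrays share it. Deviations of the paired arrays from their group means correlated at 0.828, 0.813 and 0.822. No source says whether repeat cultures exist, so p-values for siDLEU1-2 against siCtrl measure the spread of the change over 3 lines. Those between lines rest on what is left after line and siRNA. The number of arrays limits the precision. Over 581 probes with 10 spots, the median SD within an array was 0.06 to 0.066 (log2). In simulated data, limma called 182 of 200 probes changed by 1.5 (log2) and 9 unchanged probes.

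Where a probe was not well above background on an array, a bound was taken from the lowest signal well above background on that array. The members and lists were chosen with earlier results of these data known. Of each list, up to 4 called genes with the largest mean change and 2 uncalled genes with the brightest probes are named, and for EGR1 the 3 probes of highest Pearson r. Alternatives changed the scaling (quantile, median, detected probes), the background correction (normexp, offset 50), the source table, the dim-probe filter, the detection limit, the block, the threshold (3-fold), the probe of a gene or the test (the methods' t-test), or omitted a line.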

Additional observations from a re-analysis of the deposited data

Results flagged for a closer look

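FOS and BATF3 moved in opposite directions in different lines. With a single array for each line and siRNA, that difference was not tested. The log2 fold change of FOS ran from -1.55 in HSC-3 cells to 0.43 in KON cells, a span of 1.97. That of BATF3 ran from -0.33 in Ca9-22 cells to 1.67 in HSC-3 cells, a span of 2.01, and the HSC-3 control array was not well above background.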

How the results depend on the processing

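The median change of the 13 probes, 0.41 as reported, lay between 0.18 (normexp) and 0.42 in the 13 alternatives listed at the outset, in all of which EGR1 stayed negative (called in 7). With the brightest probe of each gene, added after seeing the data, the median was 0.01 (ATF3 has 4 of the 13 probes). The count of member probes called by limma, 1 as reported, was 0 without each line in turn (range 0 to 0, with 4 to 7 of 13 at an unadjusted p under 0.05, beside 22.0% to 23.4% of all probes), 0 with no filter on dim probes (7 unadjusted, beside 13.5%), 0 with no replicate block (2 unadjusted, beside 6.80%), 0 by the methods' t-test (1 unadjusted, beside 6.88%), 4 with normexp and 4 when only probes well above background on all 6 arrays were tested. Over all probes, limma called 1697 as reported, 0 with no filter, 0 without the block, and 0, 0 and 244 without HSC-3, KON and Ca9-22, 2308 of 19956 (11.6%) with normexp and 2065 of 18094 (11.4%) with the stricter filter. Of the member probes, 1 was over 2-fold in all 3 lines, 0 at 3-fold, and 1 to 4 with a line left out (4 without Ca9-22). Calls of member probes between lines numbered 15 and were 5 with no filter (FOSL1, JUN and JUND). Of the pathway genes, 10 were called, and 0 to 5 with a line left out (5 without Ca9-22 and 0 without HSC-3 or KON), 0 with no filter, 0 with no block, 0 by the t-test, 18 with normexp and 17 with the stricter filter, where more of all probes were called too. These moves come with fewer lines, fewer or more probes tested, or another error term, and the cause of the normexp difference was not tested. Signs turned for probe 2 of ATF3 (-0.029 when centered on the median and, with a line left out, from -0.091 without Ca9-22 to 0.22), FOS (-0.84 to 0.15, the latter without HSC-3) and BATF3 (-0.18 without HSC-3 to 0.83). No scaling moved the median of all probes further than centering on the median (-0.0649). The design is balanced, so leaving out the block could change the error but no mean.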

Other observations

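A pair of pathway genes outside the naming rule, chosen after their values were seen, had large values that did not pass the threshold. They were not the only ones, and MMP9, SPP1, PLAUR and BATF also had large means that did not pass. IL6, a cytokine gene with an AP-1 site, had log2 fold changes of 6.09 in HSC-3 cells, 2.53 in KON cells and 1.91 in Ca9-22 cells (limma, mean 3.51 ± 2.25, adjusted p = 0.0761). BTG2, an immediate early gene that restrains proliferation, had -2.63, -1.78 and -0.87 (mean -1.76 ± 0.88, adjusted p = 0.0541). Each had the same sign in 3 of 3 lines.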
